A study of Mus musculus with 12 samples.

Results

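The 10 genes described here encode C-type lectin receptors of myeloid cells (macrophages, monocytes and dendritic cells) and were measured in mouse liver by total RNA-seq. They are *Clec7a*, *Clec4e*, *Clec4d*, *Clec4n*, *Clec12a*, *Clec4a1*, *Clec4a3*, *Clec10a*, *Mgl2* and *Cd209a*, chosen by their symbols and matched to the Ensembl identifiers of the files. They are 10 of the 40551 genes in the files, and all 10 were among the 15070 genes that passed the filter on low counts. *Clec4d* and *Clec4e* passed it through the *Mcl1*Δhep libraries, since in each of the other 3 groups at most 1 library reached the filter's level of 0.267 CPM. CPM are counts relative to the size of the library. The filter's level is without TMM scaling, and the CPM values given below are with it.

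The study compared 4 genotypes with 3 livers each, 12 libraries in all. *Mcl1*Δhep mice (labelled Mcl1 KO) carry *Mcl1* alleles flanked by loxP sites and a Cre recombinase driven by the albumin promoter, so that this antiapoptotic gene is deleted in hepatocytes while the other liver cells, myeloid cells included, keep it. WT mice are the controls. Livers labelled Mcl1 Sting1 DKO combine this deletion with the loss of *Sting1*, the adaptor of cytosolic DNA sensing, in the whole body, and livers labelled Sting1 KO lack *Sting1* alone. WT and *Mcl1*Δhep livers were taken at 2 months of age. Mice labelled Mcl1 Sting1 DKO were examined at 2 and 12 months, and neither which of these ages was sequenced nor the age of the mice labelled Sting1 KO is given in the sources used here. The labels do not say which livers share a litter or a day, so the p-values measure the spread between these samples.

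C-type lectin receptors bind sugars and other ligands of microbes and of damaged cells through a lectin-like domain. Activating members signal through the kinase Syk, either by a motif of their own tail (Dectin-1, the product of *Clec7a*) or by pairing with the adaptor FcRγ, encoded by *Fcer1g* (the products of *Clec4e*, *Clec4d* and *Clec4n*), and then through Card9, Bcl10 and Malt1 to NF-κB. Others carry an inhibitory motif (*Clec12a*) or serve mainly in uptake (*Clec10a*, *Mgl2*). In the liver such receptors are found on resident macrophages, called Kupffer cells, and on cells recruited from blood.

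Total counts on genes ranged from 28826367 to 45266387 per library. *Mcl1*, the deleted gene, had 90.2, 102 and 104 CPM in WT, 27.9, 34.0 and 25.0 in *Mcl1*Δhep, 18.1, 22.9 and 26.0 in livers labelled Mcl1 Sting1 DKO and 78.3, 90.1 and 77.0 in livers labelled Sting1 KO, so both deleted groups lay below both others. *Sting1*, reported here as a check of the labels and outside the rule for named genes, had 2.53, 2.43 and 2.11 CPM in WT and 1.16, 1.72 and 2.70 in livers labelled Sting1 KO, groups that overlap, and 1.90, 2.53 and 2.33 in livers labelled Mcl1 Sting1 DKO against 4.59, 6.0 and 3.67 in *Mcl1*Δhep livers. Counts over the whole gene therefore did not by themselves separate the libraries labelled Sting1 KO from WT. Small structured RNAs took 0.172 to 0.369% of counts in WT libraries, 0.283, 2.37 and 1.36% in *Mcl1*Δhep libraries, 0.431 to 0.532% in libraries labelled Mcl1 Sting1 DKO and 0.506 to 0.897% in libraries labelled Sting1 KO. WT replicates 2 and 3 and replicate 1 labelled Mcl1 Sting1 DKO had over 100 counts on Y-linked genes and the other libraries at most 6, and *Mcl1*Δhep replicate 3 held 1155 CPM of skeletal muscle transcripts against at most 6.29 in any other library.

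*Clec7a*, *Clec4e*, *Clec4d*, *Clec4n* and *Clec12a* rose in *Mcl1*Δhep livers relative to WT, as did *Mgl2* and *Cd209a*, by 2.29 to 17.6 fold. That makes 7 of the 10 genes, where 10.8% of all tested genes were called higher (20.2% in either direction). An unadjusted p under 0.05 was found for 8 of the 10 and for 36.9% of all tested genes. In all 10 genes the 3 *Mcl1*Δhep libraries lay above the 3 WT libraries, which held for 16.2% of tested genes. The median log2 fold change of the 10 was 1.73, against -0.0049 over all tested genes. Without *Clec4d* and *Clec4e*, which passed the filter through this group, 5 of 8 were called. Those 8 genes had a median of 1.43, and in all 8 the libraries did not overlap. In whole liver, more cells of a type and more RNA per cell cannot be told apart.

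*Clec7a* (ENSMUSG00000079293, chromosome 6, 129438554 to 129449742 on the minus strand of GRCm39) encodes Dectin-1, the receptor for fungal β-glucan. It had 7.89, 5.93 and 14.5 CPM in WT, 39.5, 108 and 83.5 in *Mcl1*Δhep, 36.7, 41.5 and 16.1 in livers labelled Mcl1 Sting1 DKO and 6.78, 8.09 and 11.9 in livers labelled Sting1 KO. Both groups with *Mcl1* deleted lay above both groups without the deletion, and replicate 3 labelled Mcl1 Sting1 DKO stood only just above the highest WT library. The rise in *Mcl1*Δhep livers was 8.17 fold (95% interval 4.01 to 16.7, log2 3.03 with a standard error of 0.47, adjusted p = 0.00259). Unless another tool is named, every adjusted p comes from edgeR's quasi-likelihood test, with Benjamini-Hochberg adjustment over all tested genes. Under each of 21 alternatives (other scalings, filters, covariates and tests, and each library left out) *Clec7a* stayed called, with log2 fold changes of 1.78 to 3.47.

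*Clec4e* (ENSMUSG00000030142, chromosome 6, 123258748 to 123266829, minus strand) encodes Mincle, a receptor for mycobacterial glycolipid and for a nuclear protein that dead cells release. It was counted with 3, 2 and 1 reads in the WT libraries and 29, 65 and 22 reads in the *Mcl1*Δhep libraries, followed by 7, 10 and 2 reads in libraries labelled Mcl1 Sting1 DKO and 3, 2 and 4 in those labelled Sting1 KO. Outside *Mcl1*Δhep livers no library reached more than 10 reads. The ratio of the summed counts, scaled for depth, was 17.5 (95% exact interval 7.80 to 48.6, counting error only), and the fitted log2 fold change was 4.14 (SE 0.68, adjusted p = 0.00321).

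*Clec4d* (ENSMUSG00000030144, chromosome 6, 123239070 to 123252230, plus strand), the neighbour of *Clec4e*, encodes a receptor that forms a complex with Mincle. Its counts were 6, 4 and 10 reads in WT, 32, 76 and 22 in *Mcl1*Δhep, 6, 13 and 2 in livers labelled Mcl1 Sting1 DKO and 5, 5 and 3 in livers labelled Sting1 KO. *Mcl1*Δhep replicate 2 held most of the reads of its group. The rise was 6.03 fold (95% interval 2.25 to 16.2, log2 2.59, SE 0.65, adjusted p = 0.0189), and it was no longer called without *Mcl1*Δhep replicate 2 (adjusted p = 0.0947), WT replicate 1 (0.0533) or WT replicate 2 (0.0790). *Clec4d* overlaps the lncRNA Gm68468 on the other strand, and whether the counting used strand is not given in the sources used here.

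*Clec4n* (ENSMUSG00000023349, chromosome 6, 123206802 to 123223980, plus strand) encodes Dectin-2, a receptor for mannan. Its values were 2.95, 2.49 and 4.36 CPM in WT, 7.84, 17.6 and 8.85 in *Mcl1*Δhep, 6.21, 5.48 and 4.95 in livers labelled Mcl1 Sting1 DKO and 3.23, 3.50 and 3.18 in livers labelled Sting1 KO. The 4 groups separated into 3 levels, with livers labelled Mcl1 Sting1 DKO between *Mcl1*Δhep and the pair of groups that keep *Mcl1*. The rise in *Mcl1*Δhep livers was 3.50 fold (log2 1.81, SE 0.30, adjusted p = 0.00344).

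*Clec12a* (ENSMUSG00000053063, chromosome 6, 129319654 to 129342266, plus strand) encodes an inhibitory receptor that recognises uric acid crystals. It had 5.14, 4.83 and 9.15 CPM in WT, 12.7, 16 and 15.1 in *Mcl1*Δhep, 11.8, 12.3 and 10.8 in livers labelled Mcl1 Sting1 DKO and 5.76, 7.88 and 7.89 in livers labelled Sting1 KO. Both groups with the *Mcl1* deletion lay above all 6 other libraries. In *Mcl1*Δhep livers the rise was 2.29 fold (log2 1.20, SE 0.23, adjusted p = 0.00645).

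*Cd209a* (ENSMUSG00000031494, chromosome 8, 3793397 to 3798984, minus strand), a relative of human DC-SIGN and a marker of monocyte-derived dendritic cells, had 0.580, 0.208 and 0.264 CPM in WT and 1.47, 2.94 and 1.33 in *Mcl1*Δhep livers. Livers labelled Mcl1 Sting1 DKO had 1.0, 0.439 and 1.01 CPM and those labelled Sting1 KO had 0.524, 0.212 and 0.241. The *Mcl1*Δhep libraries lay above all 9 others, and the livers labelled Mcl1 Sting1 DKO overlapped WT. The rise in *Mcl1*Δhep livers was 5.32 fold (log2 2.41, SE 0.52, adjusted p = 0.0105).

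*Clec10a* and *Mgl2* encode neighbouring galactose-type lectins of macrophages and dendritic cells (ENSMUSG00000000318 and ENSMUSG00000040950, chromosome 11, 70047023 to 70061660 and 70020954 to 70028376, plus strand). *Mgl2* had 11, 13 and 4 reads in WT, 22, 42 and 28 in *Mcl1*Δhep, 8, 13 and 12 in livers labelled Mcl1 Sting1 DKO and 5, 6 and 9 in livers labelled Sting1 KO. *Clec10a* had 23, 23 and 25 reads in WT, 51, 61 and 40 in *Mcl1*Δhep, 21, 23 and 20 in livers labelled Mcl1 Sting1 DKO and 18, 12 and 26 in livers labelled Sting1 KO. In both genes the *Mcl1*Δhep libraries stood above all 9 others. *Mgl2* was called higher in *Mcl1*Δhep livers (log2 1.66, SE 0.45, adjusted p = 0.0259), a call lost without WT replicate 1, WT replicate 3, *Mcl1*Δhep replicate 2 or *Mcl1*Δhep replicate 3. *Clec10a* was not called (log2 0.98, SE 0.32, adjusted p = 0.0514), but was by DESeq2 (adjusted p = 0.0437) and by edgeR without *Mcl1*Δhep replicate 1 (0.0248) or replicate 2 labelled Sting1 KO (0.0488). Under 15 of the 21 alternatives *Clec10a* stayed uncalled, and its log2 fold change over all 21 was 0.38 to 1.20. The pair share sequence, with 270 of the 3181 possible 50-base words of *Clec10a* exons also found in *Mgl2*, so their split of reads is uncertain.

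*Clec4a1* and *Clec4a3* belong to the DCIR group of the same gene cluster (ENSMUSG00000049037 and ENSMUSG00000043832, chromosome 6, 122896122 to 122911578 and 122929380 to 122948807, plus strand). *Clec4a1* had 0.871, 1.33 and 1.32 CPM in WT and 1.80, 1.77 and 1.49 in *Mcl1*Δhep livers, and *Clec4a3* had 2.51, 2.73 and 2.74 in WT and 3.39, 3.95 and 2.91 in *Mcl1*Δhep livers. Livers labelled Mcl1 Sting1 DKO had 1.58 to 1.61 CPM of *Clec4a1* and 3.91 to 4.46 of *Clec4a3*, and those labelled Sting1 KO had 0.960 to 1.62 and 3.35 to 4.83. Neither gene was called in *Mcl1*Δhep against WT livers, where the log2 fold changes were 0.53 for *Clec4a1* (95% interval -0.05 to 1.10, adjusted p = 0.167) and 0.36 for *Clec4a3* (-0.06 to 0.79, adjusted p = 0.200). These intervals lie below that of *Clec7a*, 2.0 to 4.06.

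**Figure D1:**
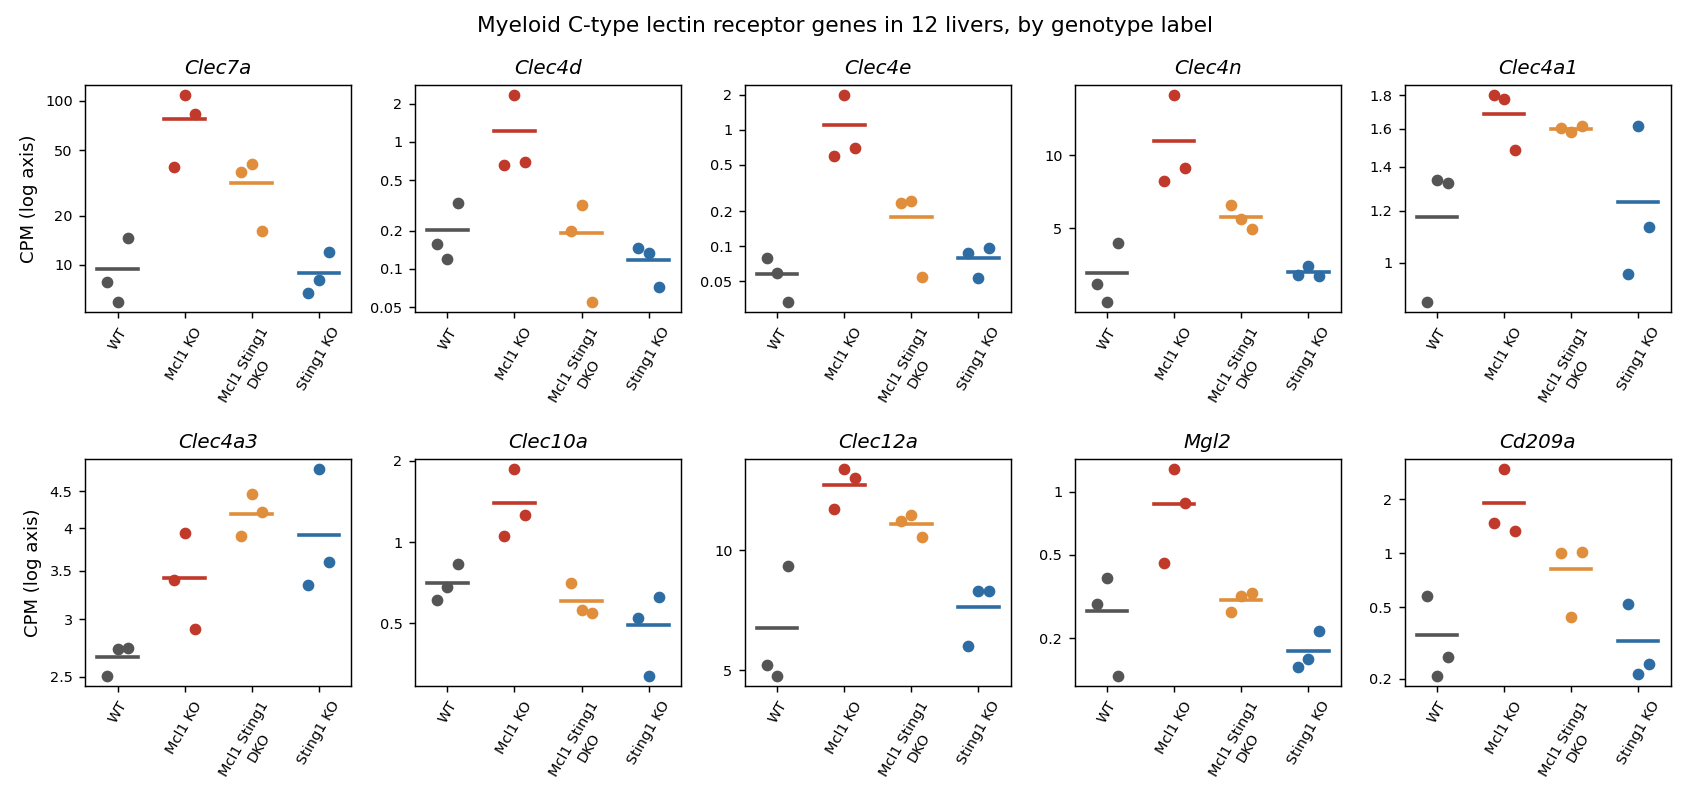
CPM of each of the 10 genes in each of the 12 libraries (log axis), 1 panel a gene, with points for libraries and a bar for the mean of each genotype. The 3 *Mcl1*Δhep libraries lie above the 3 WT libraries in every panel, by the smallest folds in *Clec4a1* and *Clec4a3* (1.44 and 1.29).

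Windows around transcription starts were searched because the 10 genes lie on 3 chromosomes and most of them rose together. RefSeq promoters (GRCm38.p6, 250 bases before to 50 after the start) were at hand for 8 of the 10 genes, not for *Clec4n* and *Clec10a*. On both strands, the composite element made of GGAA and, 2 bases on, GAAA, which ETS factors such as PU.1 bind together with interferon regulatory factors in blood cells, was found in 3 of the 8 windows and in 2.72% of 32851 promoters. The 3 matches are shown since they fall in genes with unlike responses, a large rise (*Clec7a*, *Cd209a*) and no call (*Clec4a1*). They read 5′ to 3′ on the strand of the gene, with the match, which lies on the opposite strand and so reads TTTC and, 2 bases on, TTCC, in capitals.
*Clec7a*, chr6:129472826-129472855, minus strand, 66 bases upstream: tccaacgcgtTTTCATTTCCtgctttgggc
*Cd209a*, chr8:3748974-3749003, minus strand, 9 bases upstream: cacttctcaaTTTCTCTTCCtaagtaagat
*Clec4a1*, chr6:122921629-122921658, plus strand, 209 bases upstream: ggttcctcttTTTCCTTTCCttgccacttt
The interferon response core, GAAA and, 2 bases on, GAAA, was found in *Clec4d* alone (3.44% of promoters), and the C/EBP-type word TTGCNNAA in *Clec12a* and *Clec4e* (10.8% of promoters). The PU.1-type word GAGGAAGT was in none of the 8 windows and in 3.20% of promoters. None of the 3 promoters with a composite match held another of the searched words. A match of letters is a description and not a bound site.

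The genes also differed in level. In TPM (counts divided by exon length and scaled to a common total), *Clec7a* had the highest mean in each of the 4 genotypes and *Clec4e* the lowest. In WT livers *Clec7a* had 12.8 ± 5.78 TPM and *Clec4n* 8.25 ± 2.30 (mean ± SD, n = 3), which overlapped, followed by *Clec12a* at 3.87, *Clec4a3* at 2.80 and *Clec4a1* at 1.57, with no overlap between these neighbours. *Clec10a*, *Cd209a*, *Clec4d* and *Mgl2*, at 0.870 to 0.423 TPM, overlapped their neighbours, and *Clec4e* lay below them at 0.0418.

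In *Mcl1*Δhep livers *Clec7a* reached 96.3 ± 32.3 TPM and stood apart from *Clec4n* at 26.9 ± 9.77, which in turn stood above *Clec12a* at 8.47. *Cd209a* followed at 4.07, and from it downward every neighbour overlapped the next, to *Clec4e* at 0.725. In livers labelled Mcl1 Sting1 DKO *Clec7a* had 46.0 ± 21.3 TPM, *Clec4n* 14.9 and *Clec12a* 7.54, and in livers labelled Sting1 KO 11.6, 7.96 and 4.17. *Clec7a* made up 31.6 to 43.1% of the summed CPM of the 10 genes in WT, 56.9 to 71.5% in *Mcl1*Δhep, 40.6 to 61.8% in livers labelled Mcl1 Sting1 DKO and 30.2 to 41.1% in livers labelled Sting1 KO. Its share in *Mcl1*Δhep livers lay above that of every library that keeps *Mcl1*.

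Both the share of small structured RNA and the Y-linked counts differed between *Mcl1*Δhep and WT libraries, and each was added to the fit. With the share of small structured RNA as a covariate 1 of the 10 genes, *Clec7a*, was called (log2 1.78, adjusted p = 0.0364) among 407 genes in all (2.70% of tested genes), where 3050 were called without it. With Y-linked expression as a factor 5 of the 10 were called and 10.2% of all tested genes, and the calls lost were *Clec4d* (log2 2.78, adjusted p = 0.0679) and *Mgl2* (1.53, 0.116), whose log2 fold changes were 2.59 and 1.66 without the factor. The part of either measure in the result was not tested further.

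Livers labelled Mcl1 Sting1 DKO were compared with *Mcl1*Δhep livers to ask what the loss of *Sting1* changes. Means of 9 of the 10 genes were lower in livers labelled Mcl1 Sting1 DKO, but edgeR called none of the 10 and none of all tested genes (percent called 0), while 7 had an unadjusted p under 0.05 (20.6% of tested genes). The libraries of 7 genes did not overlap and were lower in livers labelled Mcl1 Sting1 DKO (9.28% of tested genes): *Clec4d*, *Clec4e*, *Clec4n*, *Clec10a*, *Clec12a*, *Mgl2* and *Cd209a*. DESeq2 called 5, *Clec7a*, *Clec4d*, *Clec4e*, *Clec4n* and *Clec10a*, where it called 4.74% of genes. Without *Clec4d* and *Clec4e*, which passed the filter through the *Mcl1*Δhep libraries, 5 of 8 genes did not overlap, 5 had an unadjusted p under 0.05 and DESeq2 called 3.

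*Clec4d* and *Clec4e*, tested because they are high in *Mcl1*Δhep livers, had log2 differences of -2.64 (SE 0.65, adjusted p = 0.132) and -2.60 (SE 0.58, adjusted p = 0.131). In counts, this is 22 to 76 against 2 to 13 reads for *Clec4d* and 22 to 65 against 2 to 10 for *Clec4e*. *Clec7a* had a log2 difference of -1.29 (SE 0.44, adjusted p = 0.158), and its groups overlapped, since replicate 2 labelled Mcl1 Sting1 DKO, at 41.5 CPM, exceeded *Mcl1*Δhep replicate 1, at 39.5.

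*Clec4n* (log2 -1.04), *Clec10a* (-1.21), *Mgl2* (-1.49) and *Cd209a* (-1.23) had adjusted p-values of 0.133 to 0.194. *Clec12a* (-0.33, 95% interval -0.82 to 0.17), *Clec4a1* (-0.08, -0.64 to 0.48) and *Clec4a3* (0.30, -0.12 to 0.72) had intervals that include 0. The median of the 10 was -1.22 (-1.12 without *Clec4d* and *Clec4e*), against -0.0021 over all tested genes. Without *Mcl1*Δhep replicate 1 edgeR called 6 of the 10, the 5 of DESeq2 and *Mgl2*, all lower in livers labelled Mcl1 Sting1 DKO, and 20.2% of all tested genes, so that this library decides the count.

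Livers labelled Mcl1 Sting1 DKO were also set against both groups that keep *Mcl1*. Against livers labelled Sting1 KO, edgeR called none of the 10 genes (0.803% of tested genes in either direction) and 4 had an unadjusted p under 0.05 (11.3% of tested genes), *Clec7a*, *Clec4n*, *Clec12a* and *Cd209a*. All 10 log2 differences were positive, with a median of 0.73 (-0.0089 over all tested genes), and 4 genes did not overlap (*Clec7a*, *Clec4n*, *Clec12a* and *Mgl2*, 11.5% of tested genes). *Clec7a* had a log2 fold change of 1.81 (SE 0.45, 95% interval 0.83 to 2.80, adjusted p = 0.0983). It was called by DESeq2 (adjusted p = 0.00141, 3.16% of genes called) and without replicate 3 labelled Mcl1 Sting1 DKO (2.15, adjusted p = 0.0302).

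Against WT, edgeR called none of the 10 in livers labelled Mcl1 Sting1 DKO (1.82% of tested genes, 1.52% higher) and 5 had an unadjusted p under 0.05 (14.4% of tested genes). DESeq2 called *Clec7a* (adjusted p = 0.00181) and *Clec12a* (0.0146), where it called 4.72% of genes. By edgeR the log2 fold changes were 1.74 for *Clec7a* (adjusted p = 0.0840) and 0.87 for *Clec12a* (0.0891), and edgeR called *Clec7a* without replicate 3 labelled Mcl1 Sting1 DKO (adjusted p = 0.0314) and *Clec12a* without WT replicate 3 (0.0329). *Clec7a*, *Clec4n*, *Clec4a1*, *Clec4a3* and *Clec12a* did not overlap and were higher (11.5% of tested genes). These comparisons share libraries with those above and are no separate evidence.

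Livers labelled Sting1 KO were also compared with WT. By edgeR 0 of the 10 genes were called (percent called 0), 1 had an unadjusted p under 0.05 (5.45% of tested genes) and DESeq2 called 0 (0.326% of genes). That 1 gene was *Clec4a3*, with 3.35, 4.83 and 3.60 CPM against 2.51, 2.73 and 2.74 in WT, groups that do not overlap (7.06% of tested genes), and a log2 fold change of 0.56 (adjusted p = 0.813). The median of the 10 was -0.03, and 5 of the 10 log2 differences were positive. For *Clec7a* the log2 difference was -0.08 with a 95% interval of -1.05 to 0.89. For *Clec4d* it was -0.77 (-2.46 to 0.92) and for *Clec4e* 0.42 (-1.45 to 2.28), wide intervals at low counts.

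The difference of the *Mcl1* effect between the *Sting1* backgrounds was tested as an interaction. All 10 estimates were negative, with a median of -0.97 (-0.78 without *Clec4d* and *Clec4e*). With the share of small structured RNA as a covariate 4 of them turned positive (*Clec7a* 0.30, *Mgl2* 0.17, *Clec10a* 0.035 and *Clec12a* 0.0078), and *Clec4a1* did so without WT replicate 1 or replicate 2 labelled Sting1 KO. In the fit without covariates edgeR called none of the 10 (percent called 0) and DESeq2 none (1.14% of genes). An unadjusted p under 0.05 was found for *Clec4e* (log2 -3.01, adjusted p = 0.292) and *Clec4n* (-1.06, adjusted p = 0.312), 2 of 10, where 14.4% of all tested genes had one.

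**Figure D2:**
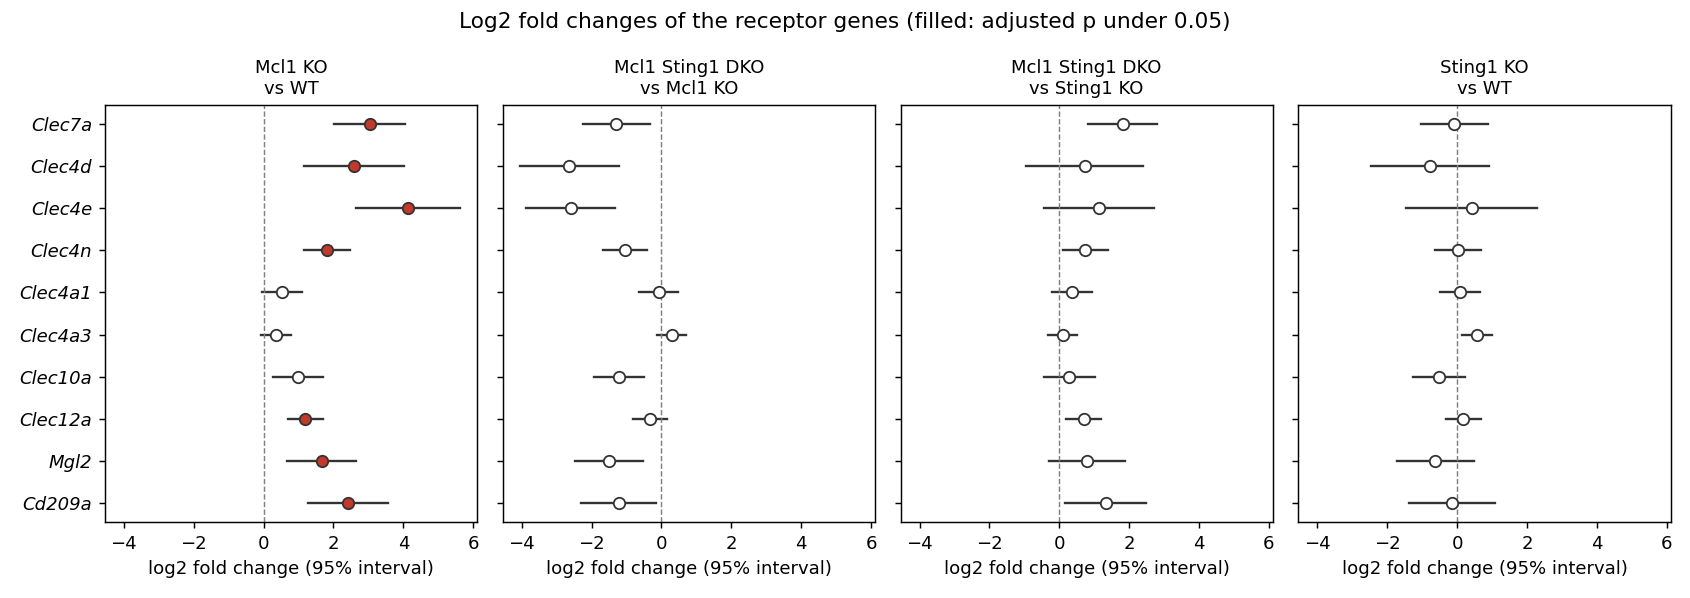
Log2 fold changes of the 10 genes with 95% intervals (x axis), with filled points for an adjusted p under 0.05 by edgeR. The panels show *Mcl1*Δhep against WT, Mcl1 Sting1 DKO against *Mcl1*Δhep, Mcl1 Sting1 DKO against Sting1 KO and Sting1 KO against WT. Mcl1 Sting1 DKO against WT and the interaction are not drawn. Filled points are found in *Mcl1*Δhep against WT livers alone, for 7 genes.

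The signalling partners of these receptors were described from a list of 16 genes. In *Mcl1*Δhep against WT livers 8 of 16 were called higher (10.8% of all tested genes) and none lower, with a median log2 fold change of 0.48. Without WT replicate 1 the count was 5, and without WT replicate 2 or *Mcl1*Δhep replicate 2 it was 4. The shares of all tested genes called were 17.4, 7.99 and 8.09% in that order, against 20.2% in the main fit. *Tyrobp*, the adaptor DAP12, had 14.6, 12.5 and 18.8 CPM in WT and 32.4, 60.9 and 42.6 in *Mcl1*Δhep livers (log2 1.56, adjusted p = 0.00182). *Fcer1g*, the adaptor of *Clec4e*, *Clec4d* and *Clec4n*, had 7.76, 6.2 and 9.11 in WT and 15.0, 19.5 and 12.8 in *Mcl1*Δhep livers (1.04, adjusted p = 0.00508). Both adaptors separated the groups without overlap, as did 16.2% of all tested genes in the same direction.

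*Syk*, the kinase that all activating members use, rose by 0.90 on the log2 scale (adjusted p = 0.00566), with 8.73 to 10.6 CPM in WT and 15.3 to 19.1 in *Mcl1*Δhep livers. *Bcl10*, *Vav1* and *Plcg2*, which act after Syk, rose by 0.84, 0.82 and 0.76 on the log2 scale (adjusted p of 0.00366, 0.0241 and 0.0225). Between livers labelled Mcl1 Sting1 DKO and *Mcl1*Δhep livers edgeR called 0 of the 16. By edgeR 5 had an unadjusted p under 0.05 (20.6% of tested genes), and DESeq2 called 2 (4.74% of genes). Without *Mcl1*Δhep replicate 1 edgeR called 4 of the 16 (2 higher and 2 lower), where it called 20.2% of all tested genes.

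Other C-type lectin genes, 27 listed and 20 tested, included 5 that were higher and 2 that were lower in *Mcl1*Δhep than in WT livers, with a median of 0.31. These 7 calls became 2 without WT replicate 2 or *Mcl1*Δhep replicate 2 and 3 without WT replicate 3. In that order 7.99, 8.09 and 10.3% of all tested genes were called, against 20.2% in the main fit. *Clec4b1*, of the same chromosome 6 cluster, rose by 2.03 on the log2 scale (adjusted p = 0.00719), from 0.119 to 0.297 CPM in WT to 0.869 to 1.04 in *Mcl1*Δhep livers. *Mrc2*, a collagen uptake receptor of fibroblasts, rose by 1.37 (adjusted p = 0.0223), *Clec4a2* by 0.98 (0.0412) and *Clec1b* by 0.77 (0.00805). *Asgr2*, a subunit of the asialoglycoprotein receptor of hepatocytes, fell by 0.60 (adjusted p = 0.0264) and *Clec2d* fell by 0.90 (0.0282). *Clec4f*, the lectin of Kupffer cells, had 133, 108 and 187 CPM in WT and 185, 204 and 190 in *Mcl1*Δhep livers and was not called (log2 0.43, adjusted p = 0.124).

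*Clec1b* was the 1 gene of these lectins called in livers labelled Mcl1 Sting1 DKO against WT (log2 0.77, adjusted p = 0.0285), with 13.2, 13.9 and 12.3 CPM against 6.75, 6.73 and 9.61. No lectin of this list was called there without WT replicate 1 or 2, replicate 1 or 2 labelled Mcl1 Sting1 DKO, or replicate 3 labelled Sting1 KO. Between livers labelled Mcl1 Sting1 DKO and *Mcl1*Δhep livers edgeR called 0 of the 20, and DESeq2 called 0 (4.74% of genes). By edgeR 4 had an unadjusted p under 0.05 (20.6% of tested genes). Without *Mcl1*Δhep replicate 1 edgeR called 2 (1 higher and 1 lower), again beside 20.2% of all tested genes.

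Markers of some cell types rose with the receptors and those of others did not. Among all tested genes, 10.8% were called higher in *Mcl1*Δhep against WT livers. In *Mcl1*Δhep against WT livers 7 of 9 macrophage markers were called higher (median log2 0.94), among them *Lyz2* (1.56, adjusted p = 0.00521) but not *Csf1r* (-0.07, adjusted p = 0.838). Of 7 monocyte markers 6 were higher (median 1.94), with *Ccr2* at 1.94 (adjusted p = 0.00622) and *Chil3* at 3.72 (0.0112), while *Fn1*, which hepatocytes also express and which is named here after its values were seen, had a log2 fold change of -0.71 (adjusted p = 0.0976). All 6 tested neutrophil markers of 7 listed were higher (median 1.84). Among 9 dendritic cell markers 1 was called, *Itgax* (1.65, adjusted p = 0.00700), while *Zbtb46* had a log2 fold change of -0.10 (adjusted p = 0.728). Kupffer cell markers went both ways, with 2 called higher and 1 lower of 6 and log2 fold changes of -2.07 to 2.09 (median -0.0047). The marker called lower was *Cd163*, a scavenger receptor, at 9.74, 12.8 and 16.8 CPM in WT and at 2.59, 3.40 and 3.38 in *Mcl1*Δhep livers (adjusted p = 0.00146).

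Summed macrophage markers came to 394 to 574 CPM in WT, 742 to 970 in *Mcl1*Δhep, 619 to 694 in livers labelled Mcl1 Sting1 DKO and 463 to 645 in livers labelled Sting1 KO. Kupffer cell markers, whose median was near 0, summed to 204 to 316 CPM in WT and 346 to 416 in *Mcl1*Δhep livers, without overlap. Their sums were 352 to 418 in livers labelled Mcl1 Sting1 DKO and 257 to 372 in livers labelled Sting1 KO. Dendritic cell markers summed to 14.2 to 20.1 CPM in WT and 21.9 to 26.9 in *Mcl1*Δhep livers, and neutrophil markers to 3.11 to 4.76 and 10.4 to 23.9, with the defining neutrophil gene *Ly6g* at 0 in every WT library. Monocyte markers, *Fn1* included, summed to 1515 to 1843 CPM in WT and 739 to 1514 in *Mcl1*Δhep livers, the opposite order to that of their median. Pan-leukocyte markers were called higher in 5 of 6 genes and T and NK cell markers in 3 of 5 tested (median 1.71). Among all tested genes 10.8% were called higher, and 36.9% had an unadjusted p under 0.05 by edgeR. Of 6 stellate cell markers 3 were called higher and 4 had an unadjusted p under 0.05 (median 0.62), with sums of 420 to 658 CPM in WT and 784 to 918 in *Mcl1*Δhep livers. No B cell (4), endothelial (5) or hepatocyte (5) marker was called by edgeR, and 0, 0 and 1 of them had an unadjusted p under 0.05. The part of these cells in the values of the 10 genes was not tested.

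**Figure D3:**
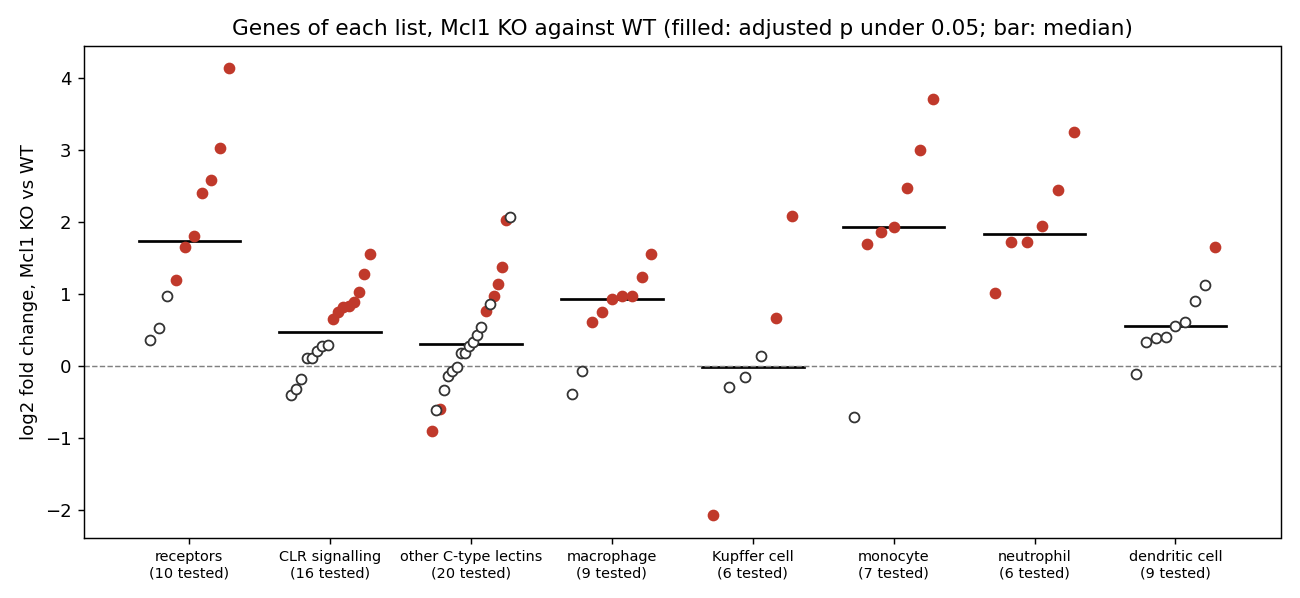
Log2 fold change in *Mcl1*Δhep against WT livers (y axis) of every tested gene in each list shown, 1 column a list. Filled points mark an adjusted p under 0.05 by edgeR and a bar the list's median. The 10 receptors had a median of 1.73 (1.43 without *Clec4d* and *Clec4e*), beside 1.94 for monocyte and 1.84 for neutrophil markers.

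To set the receptors against macrophage RNA, the ratio of each gene to the mean of the 9 macrophage markers was taken in each library on the log2(CPM + 0.5) scale, for the 5 genes with at least 30 reads in every library. Relative to WT, the ratio of *Clec7a* was 2.23 higher in *Mcl1*Δhep livers, that of *Clec4n* 0.90 higher and that of *Clec12a* 0.47 higher. The ratio of *Clec4a1* differed by -0.31 and that of *Clec4a3* by -0.41. For each of the 5 genes the *Mcl1*Δhep libraries did not overlap WT, while the marker mean itself was 0.71 higher in *Mcl1*Δhep livers. The gap was narrow for *Clec4a1* (highest *Mcl1*Δhep ratio -4.816, lowest WT ratio -4.810). It was also narrow for *Clec12a* (lowest *Mcl1*Δhep ratio -2.30, highest WT ratio -2.37). The share of all genes that separate on this ratio was not computed. Against the mean of the 6 Kupffer cell markers, 0.12 higher in *Mcl1*Δhep livers, the ratios differed from WT by 2.81 for *Clec7a*, 1.48 for *Clec4n*, 1.06 for *Clec12a*, 0.27 for *Clec4a1* and 0.18 for *Clec4a3*. The direction for *Clec4a1* and *Clec4a3* thus turned between these 2 marker lists, and that for the other 3 genes did not. The Kupffer cell mean joins markers whose log2 fold changes in *Mcl1*Δhep against WT livers were -2.07 to 2.09. Against the mean of the pan-leukocyte markers, 0.89 higher in *Mcl1*Δhep livers, the ratio of *Clec4a1* differed from WT by -0.49. On that reference *Clec7a* differed by 2.05 and *Clec4n* by 0.72.

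In livers labelled Mcl1 Sting1 DKO the same ratios differed from WT by 1.20 for *Clec7a*, 0.25 for *Clec4n*, 0.41 for *Clec12a*, -0.12 for *Clec4a1* and 0.11 for *Clec4a3*. All 5 overlapped WT. In livers labelled Sting1 KO all 5 overlapped WT as well.

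**Figure D4:**
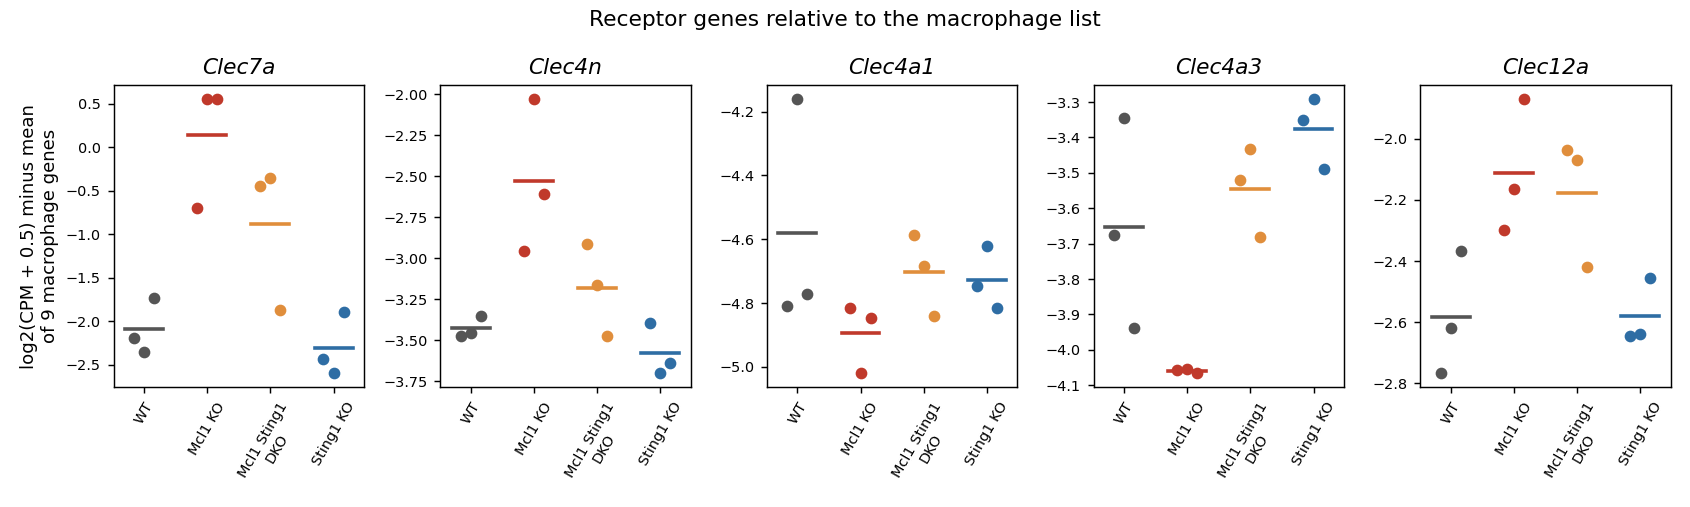
Ratio of 5 receptor genes to the mean of 9 macrophage markers in each library (y axis, log2), with points for libraries and a bar for each genotype's mean. *Clec7a* shows the widest spread between genotypes, 2.23 between the means of *Mcl1*Δhep and WT livers.

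Across the 12 libraries the 10 genes varied together to different degrees. Over their 45 pairs the median Pearson correlation of log2(CPM + 0.5) was 0.78, from -0.25 for *Clec4a3* with *Clec10a* to 0.96 for *Clec4d* with *Clec4e*. The genes most like the mean of the 10, among 12554 genes with at least 1 CPM, were *Ly6d*, *Cd300a*, *Adam8*, *Lgals3*, *Ccl6*, *Ms4a6d*, *Capg* and *Cd53*, with correlations of 0.99 to 0.97. By Spearman's rank correlation the 8 leading genes held none of these, so the order rests on the measure.

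For single genes the 3 most similar were *Slamf9*, *Pkib* and *Mmp12* for *Clec7a*, *Gm49339*, *Lilrb4a* and *Cd300a* for *Clec4n*, *Ly9*, *C1qb* and *Lgmn* for *Clec12a*, and *Ctsk*, *Plod2* and *Fhl2* for *Cd209a*. *Clec4d* was most like *Prmt1*, *Gm45928* and *Dbnl*, *Clec4e* like *Pold4*, *Gm45928* and *Tceal9*, *Clec10a* like *Prmt1*, *Tes* and *Fam187b*, and *Mgl2* like *Nt5c3b*, *Anxa1* and *Pf4*. *Clec4a3* was most like *Gm25099*, *Mtf2* and *Gnpda1*, where the highest correlation was 0.84. Spearman's correlation kept none of the 3 for *Clec7a*, *Clec4d*, *Clec4e*, *Clec4a3*, *Clec12a* and *Cd209a*, and 1 of the 3 for *Clec4n*, *Clec10a* and *Mgl2*. The points share libraries and their genotype differences, and these likenesses are descriptions.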

How the data were processed

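Total RNA of 12 mouse livers was sequenced on an Illumina NovaSeq. Per library, the authors deposited raw counts of reads on Ensembl genes, which are not normalized. The submitters' processing notes name STAR, featureCounts and GRCm39, and the annotation release and the strand and multi-mapping settings are not given in the sources used here. The RNA kit named in the labels is not the one named in the methods. Depth was 28826367 to 45266387 counts on genes per library, and intervals reflect this depth and 3 livers a group. Genotypes came from the labels.

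The deposited counts were scaled to CPM by TMM and tested in edgeR 4.0.16 (R 4.3.3) by its quasi-likelihood method, glmQLFit with glmQLFTest, after filterByExpr on genotype at a minimum count of 10 and with a prior count of 0.125 in log2 fold changes, for all 12 libraries without covariates, with Benjamini-Hochberg adjustment over 15070 genes and a threshold of 0.05. TPM used summed exon lengths of GENCODE vM39, which lists 39533 of the 40551 genes. Promoters were RefSeq's. DESeq2 1.42.0 was an alternative, as were other normalizations, filters, covariates, the omission of single libraries and a replicate block. Files were read with Python 3.11.15 and pandas 2.3.3, and figures drawn with matplotlib 3.10.9.

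The members and lists were chosen with earlier results of these data known. Named genes are the 10 members, *Mcl1*, the called genes of the signalling and other lectin lists (up to 6 per list and comparison by p, with *Fcer1g* and *Clec4f*), up to 2 genes per cell type list (*Ly6g* was added after its values were seen) and the most similar genes (those of *Clec4a1* are not reported here). On simulated counts with a log2 change of 2 between *Mcl1*Δhep and WT, edgeR found 168 of the 197 genes that had been changed (14814 genes in all, 7 false calls), and DESeq2 found 174 (41 false calls). Chi-square per degree of freedom between libraries of one genotype was 40.1 to 290, so none was a duplicate. Protein sequences were not analysed here.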

Additional observations from a re-analysis of the deposited data

How the results depend on the processing

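The count of the 10 receptors called in *Mcl1*Δhep against WT livers, 7, became 1 with the share of small structured RNA as a covariate and was 5 to 8 when 1 library was left out. Of the 16 signalling genes, 8 in the main fit, 1 was called with that covariate, 5 with Y-linked expression as a factor, 4 when only the compared groups were fitted, and 4 to 9 without 1 library. Of the other lectins, 7 in the main fit, 0, 2, 2 and 2 to 7 were called in the same order. In that order 2.7, 10.2, 8.15 and 7.99 to 34.1% of all tested genes were called, against 20.2% in the main fit. Between livers labelled Mcl1 Sting1 DKO and *Mcl1*Δhep livers, DESeq2 called 5 receptors and 2 signalling genes, and leaving out 1 library gave 0 to 6 receptors, 0 to 4 signalling genes and 0 to 2 other lectins, where each count above 0 came without *Mcl1*Δhep replicate 1. Against livers labelled Sting1 KO, DESeq2 called 1 receptor and 2 other lectins, the small RNA covariate gave 1 receptor, and leaving out 1 library gave 0 to 1 receptor and 0 to 1 other lectin. Against WT, livers labelled Mcl1 Sting1 DKO had 2 receptors and 4 signalling genes called by DESeq2, 0 other lectins with the small RNA covariate or with only the compared groups, and 0 to 1 of each list without 1 library. For the interaction, 0 to 2 signalling genes were called without 1 library, 2 of them without *Mcl1*Δhep replicate 1. Spearman's correlation kept 0 of the 8 genes most like the mean.

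Directions reversed for differences that were not called, the largest being the interaction for *Clec7a*, -1.22 without covariates. In livers labelled Sting1 KO against WT, *Clec7a* turned to 0.17 on the log2 scale with Y-linked expression as a factor, and with the small RNA covariate *Clec4e* turned to -0.31, *Clec4n* to -0.46 and *Clec12a* to -0.12. Without 1 library these were -0.34 to 0.37 for *Clec7a*, -0.14 to 0.28 for *Clec4n*, -0.16 to 0.23 for *Clec4a1* and -0.64 to 0.45 for *Cd209a*. In livers labelled Mcl1 Sting1 DKO against WT, *Clec4d* turned to 0.077 with library totals and 0.058 with the Y-linked factor, *Mgl2* to -0.24 with the small RNA covariate, and leaving out 1 library gave -0.68 to 0.46 for *Clec4d* and -0.14 to 0.50 for *Mgl2*. Against livers labelled Sting1 KO, *Clec4a3* ranged from -0.0048 to 0.27. For the interaction, the small RNA covariate gave 0.30 for *Clec7a*, 0.035 for *Clec10a*, 0.0078 for *Clec12a* and 0.17 for *Mgl2*, and *Clec4a1* ranged from -0.30 to 0.087 without 1 library. The cause of these changes was not tested. Of 1224 values of single receptors under the alternatives, 1157 kept their direction and their side of the threshold.

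The labels give replicate numbers but no pairing, and 4 of 12 libraries correlated best with their own number, so the numbers were not taken to pair samples. With the number as a replicate block, 2591 genes were called in *Mcl1*Δhep against WT livers, where 3050 were called without it. Library totals in place of TMM moved the median of all genes to 0.19 in that comparison. A minimum of 1 CPM removed *Clec4d*, *Clec4e* and *Mgl2*, which then have no value. *Clec4e*, *Clec4d* and *Mgl2* had at most 13 reads in each WT library, so depth limits their ratios.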
